A study of Mus musculus with 2 samples.

Results

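The genes described here encode the matrix metalloproteinases (MMPs), the ADAMTS proteases and the tissue inhibitors of metalloproteinases (TIMPs). They were chosen by symbol alone, as every Mmp, Adamts or Timp gene with a number in the feature list, with the ADAMTS-like genes left out. This gave 45 of 31053 genes, 22 Mmp, 19 Adamts and 4 Timp, and 27 of them reached at least 5 counts per 1e6 UMIs of the section (CPM) in either section and are reported. The 2 libraries were spatial transcriptomes, in which RNA is captured on an array of barcoded spots, from frozen mouse calvaria (skull roof) taken 7 days after a bone defect was made. In Blank the defect received no collagen/nHA, and in Col_nHA it was filled with collagen/nHA. The strain, sex and age of the mice are not given in the sources used here, and no untreated bone without a defect was analysed here. With 1 library per group there is no replicate check, no test was run, and every ratio compares these libraries and not the treatments. Ratios are Col_nHA over Blank. The ranges in brackets are exact 95% intervals for counting error alone.

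MMPs are zinc-dependent endopeptidases that are made as inactive proenzymes and, once activated, cleave collagens, gelatin, elastin and other matrix proteins. ADAMTS proteases are secreted relatives with thrombospondin repeats that cleave proteoglycans or trim procollagens, and TIMPs bind the active site of MMPs and of some ADAMTS proteases. In healing bone these enzymes clear provisional matrix, let vessels and cells move through it, and open the unmineralised layer that covers bone before osteoclasts resorb it.

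A spot of the array can hold several cells, so values describe spots and sections. Spots over tissue were barcodes with at least 3667 unique molecular identifiers (UMIs) in Blank, 2249 spots with 30705849 UMIs, and at least 4690 in Col_nHA, 2471 spots with 40202268 UMIs. The median spot held 9733 UMIs in Blank and 13815 in Col_nHA, and all 4992 barcodes of the array were present in both files. The sections did not hold the same tissues. Choroid plexus genes took 1.20% of Blank UMIs and 0.00221% of Col_nHA UMIs, skeletal muscle genes 0.581% and 1.39%, and skin genes 0.258% and 0.175%. Genes of osteoblasts and osteocytes, which define bone, took 0.114% and 0.0742%. In sections like these, a change in the number of cells of a type and a change in RNA per cell cannot be told apart.

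On chromosome 9, 9 of the members lie close together, between bases 7272514 and 7699585 of GRCm38.p6, and 3 of these neighbours reached 5 CPM: Mmp13, Mmp12 and Mmp3. The sequence upstream of each is shown because their windows hold the same motif. They also had the highest regional levels relative to their sections among the 19 members with at least 30 CPM in either section. RefSeq promoter windows on GRCm38.p6, 250 bases before to 50 after the start, were found for 31 of the 45 members. They were searched on both strands for TGAGTCA, the binding motif of the AP-1 transcription factors, with no other motif searched. The motif was in 5.20% of all 32851 windows of 300 bases. It was in the windows of 6 of 9 members of this chromosome 9 group: Mmp13, Mmp12, Mmp1b, Mmp3, Mmp10 and Mmp7. It was in those of 0 of 22 members elsewhere, and Mmp9 and Mmp2 had no window. A member counted if any of its windows held the motif, whereas the 5.20% counts windows. Mmp12 and Mmp7 each also had a window without it. Each line gives the 120 bases that end just before the annotated start, 5′ to 3′ on the plus strand, with the motif in capitals.
Mmp13, chr9:7272394-7272513: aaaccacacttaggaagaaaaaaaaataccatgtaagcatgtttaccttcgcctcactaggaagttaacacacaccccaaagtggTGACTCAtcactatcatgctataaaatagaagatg
Mmp12, chr9:7347254-7347373: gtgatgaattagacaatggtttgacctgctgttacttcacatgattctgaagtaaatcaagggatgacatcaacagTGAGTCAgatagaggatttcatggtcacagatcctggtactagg
Mmp3, chr9:7445702-7445821: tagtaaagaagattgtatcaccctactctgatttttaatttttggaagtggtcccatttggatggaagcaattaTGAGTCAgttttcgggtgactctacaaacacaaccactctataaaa
The motif began 35 bases before the start in Mmp13, 44 in Mmp12 and 46 in Mmp3. In Mmp13 the match is on the minus strand and reads TGACTCA on the strand shown. Mmp12 has another annotated start further upstream whose window did not hold these letters. A match is a run of letters and not a measured binding site.

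The labels set a defect with the material against a defect without it, and the transcript levels of the members were compared between them. The gelatinase gene Mmp9 and the inhibitor gene Timp1 were more than 2-fold more abundant in Col_nHA, and Adamts17 was more than 2-fold less abundant. Among all 11652 genes with at least 5 CPM in either section, 2.13% had a ratio of 2 or more and 4.46% a ratio of 0.5 or less, against 2 and 1 of the 27 members. The median log2 ratio of the 27 members was -0.23, against 0.0027 over all 11652 genes. The interval of the ratio lay wholly above 1 for 9 members, wholly below 1 for 15 and held 1 for 3, and over all genes it lay above 1 for 33.1% and below 1 for 31.4%. Members thus lay on both sides of 1, as did genes in general.

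**Figure D1:**
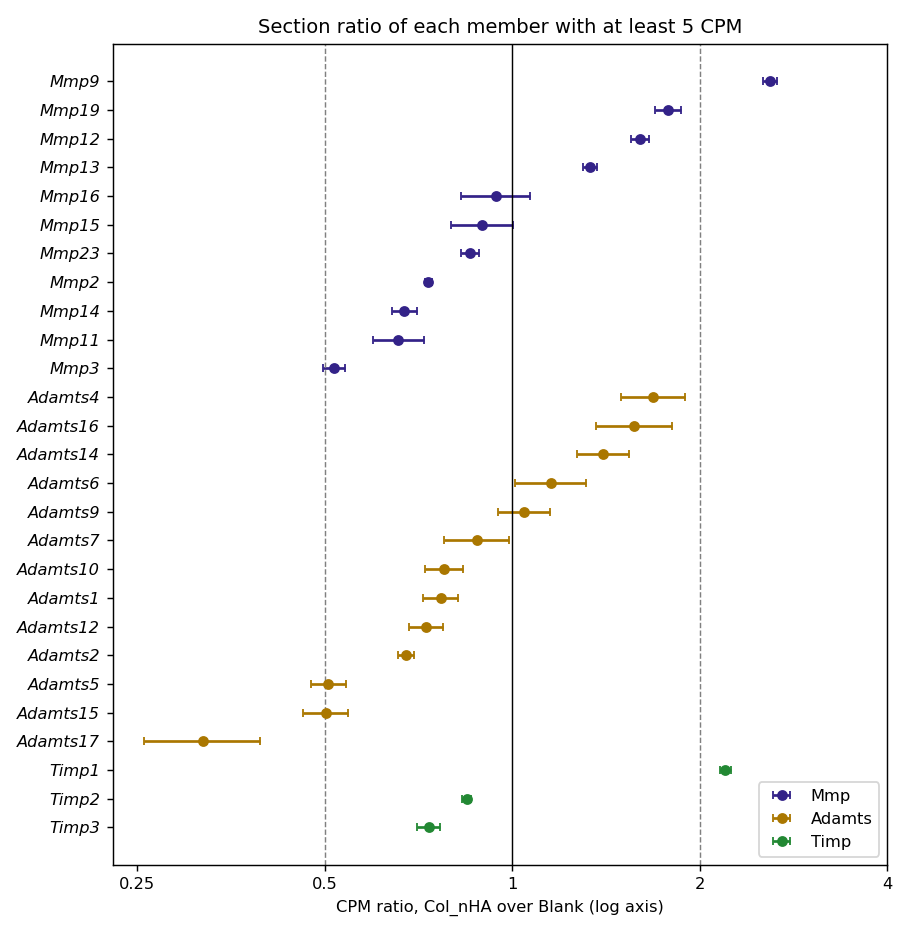
CPM ratio of Col_nHA over Blank for the 27 members with at least 5 CPM, 1 point per gene on a log axis, coloured by family; bars are exact 95% intervals of counting error and dashed lines mark 2-fold. Mmp9 at 2.60 and Timp1 at 2.20 lie past the upper line and Adamts17 at 0.319 past the lower, while Adamts15, Adamts5 and Mmp3 lie beside it.

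Among the gelatinases, which cleave denatured collagen and basement membrane collagen, the pair of genes went apart. Mmp9, made mainly by osteoclasts, neutrophils and macrophages, had 7553 UMIs in Blank, 246 CPM (240 to 252), and 25676 in Col_nHA, 639 CPM (631 to 647), a ratio of 2.60 (2.53 to 2.66). Mmp2, the gelatinase of fibroblasts and other stromal cells, had 40437 UMIs in Blank, 1317 CPM, and 38847 in Col_nHA, 966 CPM, a ratio of 0.734 (0.724 to 0.744). There were 0.187 Mmp9 UMIs per Mmp2 UMI in Blank (0.182 to 0.191) and 0.661 in Col_nHA (0.651 to 0.671). The interval of the section ratio excluded 1 for both genes. Over all 11652 genes it lay above 1 for 33.1% and below 1 for 31.4%. The osteoclast marker list moved with Mmp9: 6 of its 8 genes with 5 CPM passed 2-fold upwards in Col_nHA, and its level summed to 1473 and 2567 CPM, with no marker at 0. The neutrophil list summed to 243 and 329 CPM, with 0 of its 5 measured genes past 2-fold upwards and 1, Ngp, downwards. Its member S100a8 went from 96.2 to 164 CPM, while Camp stood at 7.13 and 5.17 CPM. The part of these cells in the Mmp9 ratio was not tested.

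The only collagenase gene with 5 CPM was Mmp13, the enzyme of hypertrophic cartilage, osteoblasts and osteocytes that cuts fibrillar collagen. It had 8628 and 15060 UMIs, 281 CPM (275 to 287) in Blank and 375 CPM (369 to 381) in Col_nHA, a ratio of 1.33 (1.30 to 1.37). The neutrophil collagenase gene Mmp8 gave 30 and 56 UMIs, and Mmp1b gave 0 in both. A count of 0 allows up to 3 UMIs, which is 0.0977 CPM in Blank and 0.0746 in Col_nHA.

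Macrophage elastase, Mmp12, had 4995 UMIs in Blank, 163 CPM (158 to 167), and 10496 in Col_nHA, 261 CPM (256.1 to 266.1), a ratio of 1.60 (1.55 to 1.66). Mmp19, a secreted MMP found in macrophages and stromal cells, stood at 77.9 CPM (74.8 to 81.1) in Blank and 139 CPM (135 to 142) in Col_nHA, a ratio of 1.78 (1.70 to 1.87). Both were higher in Col_nHA but short of 2-fold. The macrophage list summed to 6497 and 8697 CPM, of which Lyz2 alone made 4169 and 6098 CPM. Its median log2 ratio was 0.10, and 1 of its 12 genes, Cd163, passed 2-fold downwards and 0 upwards. The list for macrophages laden with lipid or foreign matter summed to 7469 and 8887 CPM, of which Apoe alone made 4734 and 3787 CPM. The median log2 ratio of this list was 0.74. Of its 9 genes, 2 passed 2-fold upwards, Gpnmb at 3.92 and Itgax at 2.57, and 0 downwards. No marker of either list was at 0. Mmp23, an MMP anchored to the membrane by its N-terminal end, had 6496 and 7275 UMIs, 212 CPM in Blank and 181 in Col_nHA, a ratio of 0.855 (0.827 to 0.885).

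Stromelysins cut proteoglycans, fibronectin and laminin and help to activate other MMPs, and both measured stromelysin genes were lower in Col_nHA. Mmp3 had 6165 UMIs in Blank, 201 CPM (196 to 206), and 4175 in Col_nHA, 104 CPM (101 to 107), a ratio of 0.517 (0.497 to 0.538). Mmp11 had 963 and 828 UMIs, 31.4 CPM in Blank and 20.6 in Col_nHA, a ratio of 0.657 (0.598 to 0.721). The fibroblast list moved the same way as Mmp3, with a sum of 3709 CPM in Blank and 1916 in Col_nHA, 4 of its 8 genes past 2-fold downwards and none at 0. Without spots rich in skin, muscle, fat, nerve, brain or choroid plexus genes, the Mmp3 ratio was 0.669. Mmp10, the other stromelysin gene, was below the CPM minimum in both sections and had 17 UMIs in Blank and 98 in Col_nHA, a ratio of 4.40 (2.61 to 7.86).

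Membrane-type MMPs act at the cell surface, and Mmp14 is the chief activator of proMMP2. Mmp14 had 3801 UMIs in Blank, 124 CPM (120 to 128), and 3338 in Col_nHA, 83.0 CPM (80.2 to 85.9), a ratio of 0.671 (0.640 to 0.703). Mmp14 and its substrate gene Mmp2 were therefore both lower in Col_nHA. Mmp15 had 564 UMIs in Blank, 18.4 CPM, and 661 in Col_nHA, 16.4 CPM, a ratio of 0.895 (0.799 to 1.003). Its interval held 1, as did that of Mmp16, with a ratio of 0.941.

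TIMP genes also went apart. Timp1, the inducible inhibitor that binds proMMP9, had 13767 UMIs in Blank, 448 CPM (441 to 456), and 39620 in Col_nHA, 986 CPM (976 to 995), a ratio of 2.20 (2.16 to 2.24). Timp2, which also takes part in the activation of proMMP2 by Mmp14, had 26172 and 28986 UMIs, 852 CPM in Blank and 721 in Col_nHA, a ratio of 0.846 (0.832 to 0.860). Timp3, the TIMP that is bound to matrix and inhibits ADAMTS proteases too, stood at 142 and 104 CPM, a ratio of 0.734 (0.704 to 0.766). There were 0.526 Timp1 UMIs per Timp2 UMI in Blank (0.515 to 0.537) and 1.37 in Col_nHA (1.35 to 1.39). Timp4 had 72 and 69 UMIs and did not reach the minimum.

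Summed over each family, MMP transcripts were nearly level between the sections at 2694 CPM in Blank and 2808 in Col_nHA, a ratio of 1.04 (1.03 to 1.05), and TIMP transcripts were higher in Col_nHA at 1445 and 1812 CPM, a ratio of 1.25 (1.24 to 1.27). ADAMTS transcripts were lower, at 708 and 525 CPM, a ratio of 0.741 (0.727 to 0.755). There were 1.87 (1.84 to 1.89) Mmp UMIs per Timp UMI in Blank and 1.55 (1.53 to 1.56) in Col_nHA. These sums count transcripts and say nothing of active enzyme. They also rest on few genes, since Mmp2 made up 48.9% of the Mmp UMIs in Blank and 34.4% in Col_nHA.

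Of the 13 ADAMTS genes with 5 CPM, 5 had a ratio above 1 and 8 below 1. Of all 11652 genes, 5871 lay above 1 and 5773 below, with genes at 0 in a section left out of these counts. Among those that cleave aggrecan, versican and other proteoglycans, Adamts5 had 2243 and 1489 UMIs, 73.0 CPM (70.1 to 76.1) in Blank and 37.0 CPM (35.2 to 39.0) in Col_nHA, a ratio of 0.507 (0.475 to 0.542). Adamts15 stood at 48.1 CPM (45.7 to 50.7) and 24.2 CPM (22.7 to 25.7), a ratio of 0.502 (0.462 to 0.544). Both lay just short of 2-fold lower. Adamts1 was lower as well, with 1787 and 1795 UMIs, 58.2 and 44.6 CPM and a ratio of 0.767 (0.718 to 0.820), whereas Adamts4, an aggrecanase gene that inflammatory cytokines raise, stood at 13.1 CPM (11.8 to 14.4) in Blank and 22.0 CPM (20.6 to 23.5) in Col_nHA, a ratio of 1.68 (1.49 to 1.90). The ratio of Adamts9 was 1.05 (0.949 to 1.15), with an interval that held 1.

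The procollagen N-proteinases remove the amino-terminal propeptide of fibrillar procollagens. Adamts2 had 9239 UMIs in Blank, 301 CPM (295 to 307), and 8174 in Col_nHA, 203 CPM (199 to 208), a ratio of 0.676 (0.656 to 0.696), while its relative Adamts14 had 662 and 1213 UMIs, 21.6 and 30.2 CPM, a ratio of 1.40 (1.27 to 1.54). The genes of its substrates were lower with Adamts2, with ratios of 0.670 for Col1a1, 0.724 for Col1a2 and 0.745 for Col3a1. Adamts12 and Adamts7, whose products can cleave the cartilage protein COMP, had ratios of 0.727 (0.682 to 0.775) and 0.876 (0.778 to 0.987). Adamts12 had 1984 UMIs in Blank, 64.6 CPM, and 1889 in Col_nHA, 47.0 CPM. Adamts7 had 522 UMIs, 17.0 CPM, and 599 UMIs, 14.9 CPM. Adamts10 and Adamts6, relatives whose products act around fibrillin microfibrils, had ratios of 0.777 (0.724 to 0.834) and 1.15 (1.01 to 1.31). Adamts10 had 1553 UMIs in Blank, 50.6 CPM, and 1580 in Col_nHA, 39.3 CPM. Adamts6 had 383 UMIs, 12.5 CPM, and 578 UMIs, 14.4 CPM.

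Adamts17, a further gene linked to fibrillin microfibrils, had 302 UMIs in Blank, 9.84 CPM (8.76 to 11.01), and 126 in Col_nHA, 3.13 CPM (2.61 to 3.73), a ratio of 0.319 (0.257 to 0.394). It reached the minimum of 5 CPM in Blank alone, and is reported only for its level there. It was the only reported member at least 2-fold lower, and with a minimum of 10 CPM there were 0. Adamts16 had 299 and 614 UMIs, 9.74 CPM in Blank and 15.3 in Col_nHA, a ratio of 1.57 (1.36 to 1.81). By the higher of its levels, Adamts17 lay nearest above the minimum of 5 CPM. Mmp17, with 3.75 CPM in Blank and 3.53 in Col_nHA, lay nearest below it.

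Of the 18 members that did not reach the minimum, Mmp1b, Mmp20 and Mmp21 had no UMI in either section. Mmp20 is the enamel protease enamelysin. Mmp27 had 100 UMIs in Blank and 56 in Col_nHA, a ratio of 0.428 (0.303 to 0.599). The matrilysin gene Mmp7 had 6 and 3 UMIs, Mmp28 had 6 and 20, and Adamts13, whose product cleaves von Willebrand factor and is made mainly in liver, had 3 and 3.

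Other genes of the pathway were taken from lists of regulators, ADAM sheddases, ADAMTS-like proteins, substrates and inducing signals. Of 16 measured activators, inhibitors and binding partners, 2 passed 2-fold upwards in Col_nHA and 1 downwards, with a median log2 ratio of 0.02. Among the higher genes was Plaur, which encodes the urokinase receptor, at 2.12 (1.98 to 2.26). The lower gene was A2m, which encodes a protease trap of plasma, at 0.374 (0.305 to 0.457). The most abundant regulators by UMI were Thbs2 at 0.690 and Bsg, which encodes the MMP inducer basigin, at 0.967, and Reck, a membrane-anchored MMP inhibitor, had a ratio of 0.604 (0.544 to 0.671). None of 8 ADAM genes and none of 4 ADAMTS-like genes reached 2-fold in either direction; Adam8 stood at 1.93 (1.83 to 2.04) and Adam33 at 0.515 (0.454 to 0.584), Adam12 and Adam15 had ratios of 0.922 and 1.04, and Adamtsl1 and Adamtsl5 0.822 and 0.701.

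Among 14 measured substrates the median log2 ratio was -0.34. Spp1, which encodes osteopontin, was at least 2-fold higher at 5.74 and the elastin gene Eln at least 2-fold lower, at 1195 CPM in Blank and 393 in Col_nHA, a ratio of 0.329 (0.323 to 0.335). Among 11 measured inducing signals the median was 0.37, and 3 of them passed 2-fold upwards and 0 downwards. The 3 genes were Cxcl5 at 3.12, Osm at 2.86 and Fosl1, which encodes an AP-1 subunit, at 4.69 (3.30 to 6.83), on 37 and 227 UMIs. The more abundant AP-1 subunit genes Junb, Fosl2, Jun and Fos had ratios of 1.20, 1.13, 0.909 and 0.912.

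The next question was where in each section the members lay. Spots of both sections were clustered together without any of the 45 member genes, so that the level of a member did not define a region, and this gave 14 regions. They carry numbers and leading genes, not cell types. Levels are given where a section had at least 50 spots of a region, which held for 8 regions in Blank and 9 in Col_nHA, and only regions 3, 5 and 9 had that many in both. For the 19 members with at least 30 CPM in either section, the level in the highest region was a median of 1.74 times that of the whole section in Blank, from 1.21 to 9.50, and 1.94 times in Col_nHA, from 1.27 to 6.04. The 3 members with the highest such value in either section were the chromosome 9 neighbours whose promoters are printed above: Mmp12 at 9.50 in Blank, Mmp3 at 6.04 in Col_nHA and Mmp13 at 4.43 in Blank.

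**Figure D2:**
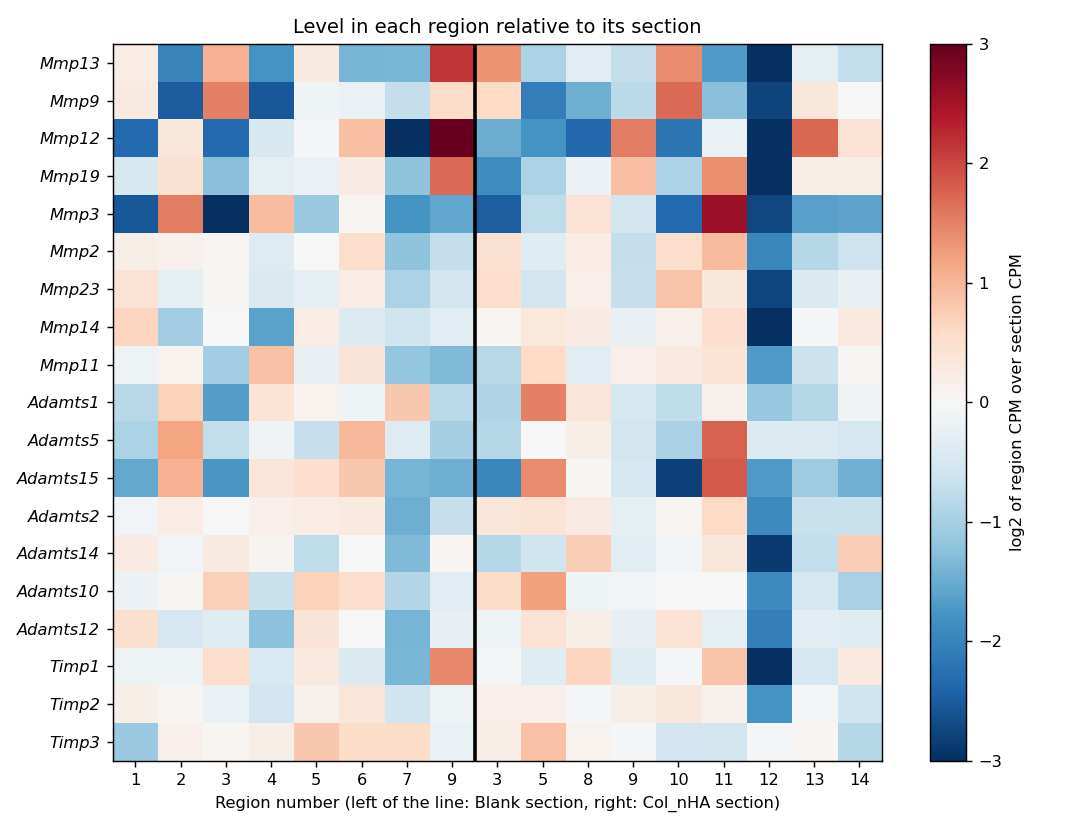
Log2 of the CPM in a region over the CPM of its whole section for the 19 members with at least 30 CPM (rows) in the 8 regions of Blank and 9 regions of Col_nHA with at least 50 spots (columns); red is above the section and blue below. The most intense red is Mmp12 in region 9 of Blank at 9.50 times its section level, Timp2 stays between 0.661 and 1.29 times outside region 12, and region 12, led by the muscle gene Myh4, is low for nearly all members.

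In Col_nHA, Mmp9 was concentrated in region 10, led by Acp5, Slc9b2 and Mt3. It stood there at 2084 CPM (2050 to 2118), and this region held 56.2% of the Mmp9 UMIs of Col_nHA and 17.2% of all its UMIs. The next levels in Col_nHA were 965 CPM in region 3, led by the osteocalcin genes Bglap and Bglap2, 807 in region 13, led by Ly6c2 and Cxcl10, and 636 in region 14, led by the wound keratin gene Krt6b. The lowest was 92.9 CPM in region 12. The osteoclast list took 0.689% of UMIs in region 10, 0.312% in region 3, 0.330% in region 13 and 0.252% in region 14, and the neutrophil list 0.0186%, 0.107%, 0.0338% and 0.155%. In Blank the highest level of Mmp9 was 701 CPM (654 to 750) in region 3, and region 10 had 15 spots. When the spots of region 10 were left out, which was decided with these values known, the Mmp9 ratio was 1.60.

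Across spots, the Mmp9 share of UMIs had a Spearman correlation of 0.75 with the osteoclast list in Col_nHA (2471 spots) and 0.40 in Blank (2249 spots), the highest of 19 marker lists in each section. Spots of a section share a library, and shares of a total are not independent of each other, so these correlations are descriptions.

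Mmp13 shared part of that pattern. In Col_nHA it stood at 1000 CPM (977 to 1024) in region 10 and 953 CPM in region 3, and region 10 held 46.0% of its UMIs. In Blank it was highest in region 9, led by Npy, Gpnmb and Spp1, at 1244 CPM (1181 to 1308), followed by 575 CPM in region 3. The correlation between Mmp13 and Mmp9 across spots was 0.31 in Blank and 0.49 in Col_nHA. The lists most correlated with Mmp13 were cartilage in Blank, at 0.34, and osteoclast in Col_nHA, at 0.51. Without the spots of region 10 the Mmp13 ratio went from 1.33 to 0.900, the opposite direction.

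Mmp12 shared its highest region with Mmp13 in Blank and not in Col_nHA. In Blank it stood at 1545 CPM (1476 to 1617) in region 9, 9.50 times its section level, and the 62 spots of this region held 37.2% of its UMIs. In Col_nHA it stood at 856 CPM (819 to 894) in region 13 and 763 CPM (743 to 783) in region 9, against 56.8 CPM in region 10, 50.9 in region 8 and 21.3 in region 12. The macrophage list took 1.23% of UMIs in region 9 of Blank, 1.81% in region 9 of Col_nHA and 1.74% in region 13, against 0.640% in region 10. The correlation of Mmp12 with the list of lipid and foreign-body macrophages was 0.53 in Col_nHA and 0.19 in Blank, where the neutrophil list stood at 0.20.

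The stromelysin gene Mmp3 was highest in other regions. In Blank it stood at 585 CPM (566 to 605) in region 2, led by Myog and Cfd, and 383 CPM in region 4, led by Defb8 and Krt77, and these regions held 54.0% and 25.01% of its UMIs. In Col_nHA it was highest in region 11, led by Saa3, Mt2 and Prg4, at 627 CPM (595 to 660), 6.04 times its section level, and stood at 20.7 CPM in region 10. Of 19 marker lists, that of fibroblasts had the highest correlation with Mmp3 in both sections, at 0.63 in Blank and 0.43 in Col_nHA. In Blank the skeletal muscle, mast cell and adipose lists followed at 0.58, 0.48 and 0.48, while in Col_nHA they stood at -0.0041, 0.12 and 0.07. The correlation between Mmp3 and Mmp13 was -0.30 in Blank and -0.14 in Col_nHA, and that between Mmp12 and Mmp3 was 0.03 and 0.02. In Col_nHA, Mmp13, Mmp12 and Mmp3 were thus highest in regions 10, 13 and 11, and in Blank Mmp13 and Mmp12 were both highest in region 9 and Mmp3 in region 2.

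**Figure D3:**
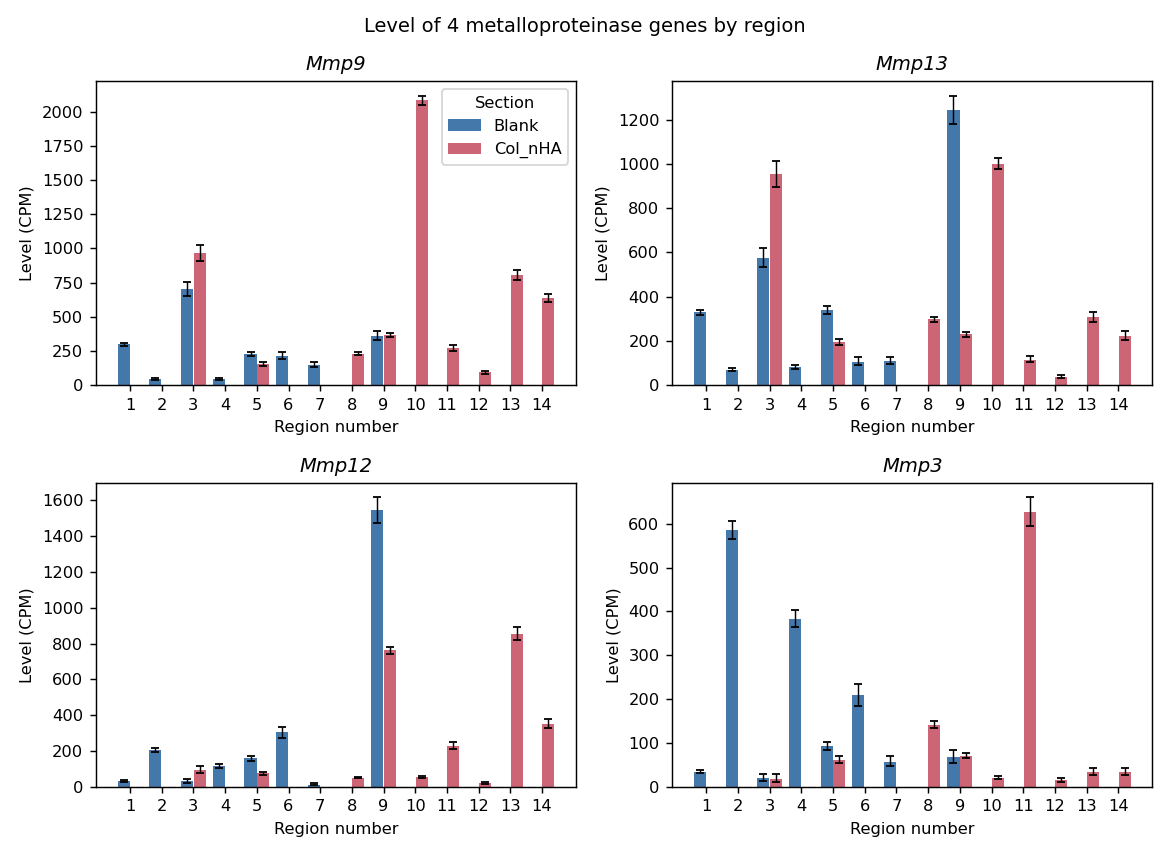
Level of Mmp9, Mmp13, Mmp12 and Mmp3 in CPM (vertical axes, scales differ between panels) in each region with at least 50 spots, blue for Blank and red for Col_nHA; bars start at 0 and error bars are exact 95% Poisson intervals. In Col_nHA, Mmp9 and Mmp13 are high in regions 3 and 10, Mmp12 in regions 9 and 13 and Mmp3 in region 11. In Blank, the tallest bars of both Mmp13, at 1244 CPM, and Mmp12, at 1545 CPM, are in region 9, that of Mmp9 is in region 3 and that of Mmp3 in region 2.

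Mmp10, with 98 UMIs in Col_nHA, had 38 of them in region 9 and 21 in region 8, and 12 of its 17 UMIs in Blank lay in region 9. Mmp19 was high in region 9 of both sections, at 251 CPM in Blank and 261 in Col_nHA, and highest in region 11 of Col_nHA at 366 CPM.

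Mmp2 stood between 573 and 1906 CPM in the regions of Blank and between 249 and 1871 in those of Col_nHA, where it was highest in region 11 and lowest in region 12. Across spots of Col_nHA, Mmp2 had a correlation of 0.48 with Mmp23, 0.47 with Timp2 and 0.42 with Adamts2, and in Blank these were 0.29, 0.40 and 0.31. Adamts5 had the same highest regions as Mmp3, with 166 CPM in region 2 of Blank and 126 in region 11 of Col_nHA, but was at 68.4 CPM in region 4 of Blank, below its section level, and at 144 in region 6. Adamts15 was also highest there, at 99.0 CPM in region 2 of Blank and 86.8 in region 11 of Col_nHA. Adamts1 was highest in region 5 of Col_nHA, led by Shisa3, Penk and Cldn11, at 127 CPM, and in region 7 of Blank, led by Ttr, at 101 CPM.

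Timp1 was spread more widely. In Col_nHA it stood at 1794 CPM in region 11, 1539 CPM (1514 to 1565) in region 8, led by Cxcl5 and Actg2, and 1210 CPM in region 14, and region 8 held 34.8% of its UMIs and 22.3% of all UMIs. In region 10, where Mmp9 was highest, Timp1 was at 955 CPM, near its section level. In Blank it was highest in region 9, at 1210 CPM. When the spots of region 8 were left out, also decided with these values known, the Timp1 ratio was 1.84. The correlation of Timp1 with the myofibroblast list was 0.53 in Col_nHA and 0.21 in Blank, where that with the osteoclast list was also 0.21.

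The number of Mmp UMIs per Timp UMI followed these patterns. In Col_nHA it was highest in region 10 at 2.64 and lowest in region 5 at 0.925, with 1.001 in region 8. In Blank it ran from 1.27 in region 7 to 2.17 in region 9.

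The last comparison set spots of like profile against each other in the 3 regions held by both sections. The members with the widest section ratios did not keep them in every region. Of all genes with at least 5 CPM, 6.86% passed 2-fold upwards and 5.83% downwards in region 3, 2.11% and 1.96% in region 5, and 2.57% and 3.60% in region 9. Of the members, 2 of 27 were higher and 2 lower in region 3, and 2 of 28 and 3 in region 5. In region 9 there were 0 of 27 and 2. The 5 CPM minimum was applied within each region, so these sets differ from the 27 members of the whole sections. Among the higher were Adamts18 in region 3, on 10 and 24 UMIs, and Mmp17 in region 5, on 11 and 20. Neither gene reached the minimum in the whole sections. Region 3 held 93 spots in Blank and 63 in Col_nHA, region 5 282 and 207, and region 9 62 and 371. For 6 of the 27 members with 5 CPM in the whole sections, the interval of the ratio lay above 1 in a shared region and below 1 in another, against 4.20% of all 11652 genes, and intervals narrow as UMIs increase.

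Mmp9, at 2.60 between whole sections, had a ratio of 1.38 (1.26 to 1.51) in region 3, 0.674 (0.605 to 0.750) in region 5 and 1.01 (0.914 to 1.12) in region 9. Timp1, at 2.20 between whole sections, had ratios of 1.47 (1.34 to 1.62) and 1.40 (1.33 to 1.48) in regions 3 and 5 and 0.632 (0.597 to 0.670) in region 9. Mmp12 was higher in Col_nHA in region 3, at 2.93 (2.002 to 4.36) from 38 and 106 UMIs, and lower in regions 5 and 9, at 0.477 (0.412 to 0.551) and 0.494. The difference was widest for Mmp13 in region 9, at 1244 CPM (1181 to 1308) in Blank and 230 CPM (219 to 241) in Col_nHA, a ratio of 0.185 (0.172 to 0.198). In the same region the neutrophil list took 0.118% of UMIs in Blank and 0.0218% in Col_nHA and the macrophage list 1.23% and 1.81%, and their part in these ratios was not tested.

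Although some intervals held 1, the ratios of Mmp14, Timp3, Mmp2 and Adamts17 were among those on the same side of 1 throughout. The ratios of Mmp3 and Adamts1 were not. Mmp14 stood at 0.690, 0.708 and 0.726 in regions 3, 5 and 9, close to its section ratio of 0.671, and each interval lay below 1. Timp3 stood at 0.820, 0.772 and 0.829, with an interval below 1 in regions 5 and 9. Mmp3, at 0.517 between sections, stood at 0.957 (0.504 to 1.81) in region 3, 0.665 in region 5 and 1.04 (0.820 to 1.33) in region 9. Mmp2 stood at 0.969 (0.902 to 1.04), 0.567 and 0.733. Adamts1, lower between whole sections, was 2.04 (1.75 to 2.39) times as abundant in Col_nHA in region 5. Adamts17, also low between sections, stood there at 0.292 (0.169 to 0.483). The interval of Adamts17 held 1 in region 3, at 0.938 (0.458 to 1.91). It also held 1 in region 9, at 0.666 (0.180 to 3.68) on 3 and 12 UMIs.

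**Figure D4:**
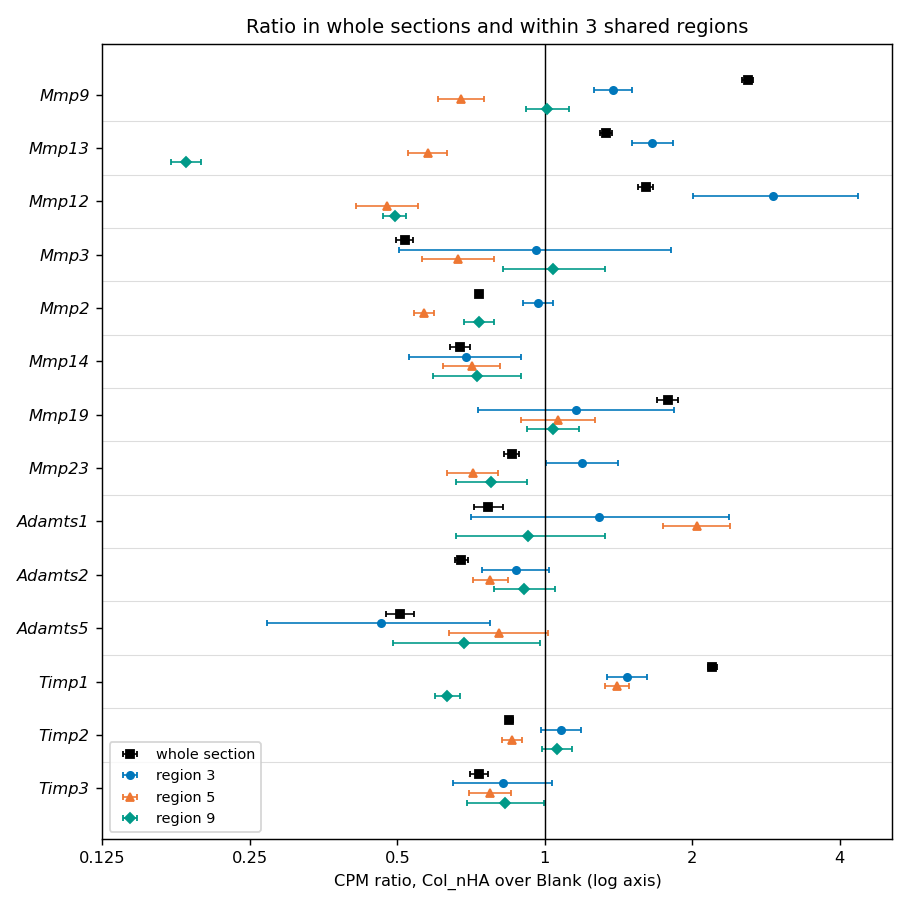
CPM ratio of Col_nHA over Blank (log axis) for 14 members in the whole sections (black squares) and within regions 3, 5 and 9, with exact 95% intervals of counting error. Mmp9, Mmp13, Mmp12 and Timp1 have points on both sides of 1, whereas all points of Mmp14 lie below 1.

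To compare how many spots held a transcript of a member, each spot was thinned to 2000 UMIs. At least 1 Mmp9 UMI was found in 23.6% (21.8 to 25.4) of spots in Blank and 43.3% (41.3 to 45.3) in Col_nHA. The unthinned shares were 57.0% and 82.8%. Timp1 was found in 52.0% and 75.1%, and Mmp12 in 17.2% and 24.8%. Mmp3 was found in 27.8% (26.0 to 29.7) and 16.1% (14.6 to 17.6), and Mmp2 in 86.6% and 74.6%. In all, 6 of the 19 members had the higher share in Col_nHA, a count that was not made over all genes. Barcodes below the tissue threshold with at least 500 UMIs served as the background, 2557 of 2743 in Blank and 2335 of 2521 in Col_nHA. For this comparison, background barcodes and tissue spots were thinned to 500 UMIs. Mmp9 was found in 12.4% of the background barcodes in Blank and 19.9% in Col_nHA, above the 7.96% and 17.9% found over tissue. The background barcodes were set apart by UMI count alone, with no image used, so some of them may lie over tissue with little RNA. Whether a single Mmp9 UMI came from its own spot was not tested. Mmp12 and Mmp13 also had the higher share below the threshold, and Timp1 stood at 19.2% there against 18.01% over tissue in Blank and 36.3% against 37.4% in Col_nHA. For Mmp3 the background was below the tissue spots, at 4.93% against 10.4% in Blank and 4.11% against 5.54% in Col_nHA, and for Mmp2 at 35.9% against 43.4% and 27.8% against 35.2%.

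By position in GRCm38.p6, the assembly behind mm10, the protein-coding gene Mmp9 (ENSMUSG00000017737) spans 164940326 to 164955850 of chromosome 2, and Timp1 (ENSMUSG00000001131) spans 20870166 to 20874737 of chromosome X. Mmp13 (ENSMUSG00000050578) spans 7272514 to 7283333 on chromosome 9, Mmp12 (ENSMUSG00000049723) 7344397 to 7360461 and Mmp3 (ENSMUSG00000043613) 7445822 to 7455975. Adamts17 (ENSMUSG00000058145) lies on chromosome 7 from 66839699 to 67153171, and Mmp2 (ENSMUSG00000031740) on chromosome 8 from 92827290 to 92853421. Adamts1 (85793827 to 85803113) and Adamts5 (85858157 to 85901125) are close together on chromosome 16. The spans of Timp1, Timp2, Timp3, Mmp19 and Mmp23 overlap those of the protein-coding genes Syn1, Cep295nl, Syn3, Tmem198b and Mib2, and the sources used here do not say how reads from an overlap were assigned.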

How the data were processed

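Per the labels, both libraries were spatial transcriptomes of fresh-frozen sections, although the extraction text describes a droplet single-cell library. The authors deposited raw UMI counts per gene and barcode for the whole array, with no tissue filter. Per the submitters' processing notes, Space Ranger and build mm10 were used, with no version given, and the file headers name Cell Ranger 4. No spot positions or image were used here.

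The members, thresholds and gene lists were chosen with earlier results of these data known. For each section the UMIs of its tissue spots were added up and given as CPM. CPM was not divided by gene length, so levels are compared within a gene. Ratio intervals are conditional binomial, CPM intervals Poisson and shares Clopper-Pearson. There were 265 Blank and 215 Col_nHA barcodes within 10% of the thresholds. Full values were given for members past 2-fold and for the 2 members with the most UMIs of each role group that reached 5 CPM. Other members named in full, such as Mmp10 and Adamts4, were chosen after their values were seen, as were pathway genes outside the 2 most abundant of a list and those past 2-fold.

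For regions, each spot's total was set to 10000 before the log transform. The 2000 most variable genes other than members gave 30 principal components, with no batch integration. Leiden clustering used 15 neighbours and resolution 0.6. No doublet caller was run. The calculations were tested on simulated data. Clustering used scanpy 1.11.5 and igraph 0.11.9, intervals scipy 1.17.1, tables pandas 2.3.3 and numpy 2.4.6 under Python 3.11.15, plots matplotlib 3.10.9. TMM factors alone came from edgeR 4.0.16 in R 4.3.3. Protein sequences were not used here. Some genes of the lists are not reported here.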

Additional observations from a re-analysis of the deposited data

Results flagged for a closer look

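For 6 of the 27 members, the data gave a ratio of Col_nHA over Blank whose counting interval lay above 1 in a shared region and below 1 in another. The same held for 4.20% of all 11652 genes, and the interval of a gene narrows as its UMIs increase. The difference between regions was not tested, and each region is 1 set of spots per library. Mmp12 stood at 2.93 (2.002 to 4.36) in region 3 and 0.477 (0.412 to 0.551) in region 5. Mmp13 stood at 1.66 (1.503 to 1.83) in region 3 and 0.185 (0.172 to 0.198) in region 9. Mmp9 stood at 1.38 (1.26 to 1.51) in region 3 and 0.674 (0.605 to 0.750) in region 5. Timp1 stood at 1.47 (1.34 to 1.62) in region 3 and 0.632 (0.597 to 0.670) in region 9. Mmp23 stood at 1.19 (1.004 to 1.41) in region 3 and 0.712 (0.631 to 0.803) in region 5. Adamts9 stood at 1.42 (1.18 to 1.71) in region 5 and 0.577 (0.381 to 0.898) in region 9.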

How the results depend on the processing

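No paired analysis was possible because each group held 1 library. The count of members at least 2-fold higher stayed at 2 or 3 under the planned thresholds, scalings and CPM minimums, except that it was 4 of 42 with no minimum. Without region 10 and without region 8, both settings chosen after the data were seen, it was 1. The count at least 2-fold lower was 3 at a threshold 50% higher, 2 as a mean of per-spot CPM, 0 with a minimum of 10 CPM and 0 with 50 CPM, 5 with no minimum and 4 without region 8. The median log2 ratio of the members stayed negative under every alternative run. The medians of the members' lower and upper log2 interval bounds were -0.32 and -0.18, which do not form an interval of the median ratio. The median log2 ratio lay outside these bounds at -0.16 without spots rich in other tissues, -0.37 at 50 CPM and -0.33 without region 8. Of the 27 members, each kept its side of 1 under the 11 alternatives except Adamts9 with every barcode and without region 8, Mmp15 without spots rich in other tissues and Mmp13 without region 10. The median of highest region over section was 1.71 in Blank and 1.82 in Col_nHA at resolution 0.3, and 1.80 and 2.38 at resolution 1.0. With no thinning, 9 of 19 members had the higher share of spots in Col_nHA. Without spots rich in other tissues, the Col_nHA correlations were 0.36 for Timp1 with myofibroblasts and 0.43 for Mmp13 with osteoclasts. In Blank the highest list became neutrophil for Timp1, at 0.19, and lipid and foreign-body macrophage for Mmp12, at 0.22. Mmp9 with osteoclasts stood at 0.46 in Blank and 0.75 in Col_nHA, and Mmp3 with fibroblasts at 0.62 and 0.41. TMM and median-of-ratios scaling moved the median of all genes by less than 0.1 on the log2 scale. Depth limits the members under 5 CPM and the ratios within regions of few spots.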
